A study of Mus musculus with 2 samples.

Results

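Rn45s is the gene symbol of the 45S pre-ribosomal RNA, the precursor from which 18S, 5.8S and 28S rRNA are cut. In CLIP-seq of the RNA helicase DDX10, 17 peaks were given that symbol, and they lay along a copy of 18S rRNA on mouse chromosome 17 or just past it. CLIP-seq crosslinks a protein to its RNA, purifies the protein and sequences the attached RNA fragments. They were taken by gene symbol from the authors' annotated peak lists, as 8 of 131 distinct peaks in replicate 1 and 9 of 96 in replicate 2, or 17 of 227 in all. Both libraries came from E14 mouse embryonic stem cells with stable expression of Flag-tagged DDX10. The cells grew in a medium with LIF and the inhibitors CHIR99021 and PD0325901, were crosslinked with ultraviolet light, and gave nuclear extracts from which Flag-tagged DDX10 was purified with its RNA. There was 1 group, and libraries of untagged cells, of input RNA or of another protein were not analysed here, so no value below is set against a background measured the same way. The labels do not say whether the replicates were separate cultures, nor whether the tagged line was 1 clone, nor how the amount of tagged protein compared with that of the cells' own DDX10. Peak lists give no expression levels, so the cell type was not checked against markers.

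In the nucleolus the 45S precursor is bound by small nucleolar RNAs and by many proteins while it is still being copied, and the 18S part folds within a large assembly, the small subunit processome. U3 and U14 are snoRNAs that pair with this part of the precursor and have to be removed from it by helicases. DDX10 is a DEAD-box helicase whose yeast counterpart, Dbp4, acts in this assembly and is needed to release U14. Mature 18S rRNA folds into a 5' domain, a central domain, a 3' major domain and a short 3' minor domain, which become the body, platform, head and long penultimate helix of the small subunit. The title of the study names 18S rRNA processing, and the question here was where along the 18S sequence the DDX10 signal stood and how well the libraries agreed on it.

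On chromosome 17 of the mm10 build, all 17 peaks were on the plus strand, and the peak caller had given each of them the same gene ID as the annotation. RefSeq has a copy of 18S sequence there, the pseudogene Rn18s-rs5, from 39846354 to 39848202 (1849 bp). Bases are counted here from 1 at its lowest coordinate. The copy is somewhat shorter than mature 18S rRNA, no sequence of it was used, and the domain limits are textbook approximations, with the central domain from about base 660, the 3' major domain from about base 1200 and the 3' minor domain from about base 1700. A domain given to a peak near one of these limits is therefore uncertain. The Rn45s transcript that the authors' annotation used starts 604 bases inside the copy, at 39846958, and ends at 39848788, so it covers 1245 bases of the copy and 586 bases after it. As rRNA genes are repeated and nearly identical, a peak here may hold reads of any copy that were placed at this locus.

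The annotation classes of these peaks followed from that transcript start and do not describe a promoter. In each replicate 7 peaks were called promoter, and 4 of those lay before the annotated start, by between -54 and -466 bp (replicate 1) or between -56 and -466 bp (replicate 2) in the authors' distance column. The remaining peaks, 1 in replicate 1 and 2 in replicate 2, were called exon. The authors numbered the peaks of each list without gaps, and those of this locus carried the numbers 47 to 54 (replicate 1) and 33 to 41 (replicate 2), so no numbered peak between them was left out of the lists. Upstream of the copy neither list had an Rn45s peak, and peaks there under another symbol were not examined.

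The 5' domain held 4 peaks in each replicate, more than any other domain. In replicate 1 they stood at 39846489 to 39846492 (bases 136 to 139) with a height of 279 tags, at 39846608 to 39846613 (bases 255 to 260) with 363, at 39846760 to 39846764 (bases 407 to 411) with 155 and at 39846902 to 39846904 (bases 549 to 551) with 264. In replicate 2 they stood at 39846492 (base 139) with a height of 240 tags, at 39846678 to 39846679 (bases 325 to 326) with 182, at 39846760 to 39846761 (bases 407 to 408) with 96 and at 39846902 (base 549) with 245. The height is the authors' value for the greatest number of overlapping tags and is not scaled for depth. Of these positions 3 were the same in both lists, and the second position differed, at base 255 in replicate 1 and at base 325 in replicate 2. The lowest of the 4 was the peak at base 407 in both. The 5' domain is also the longest, with 659 bases, or 164.75 bases per peak. By that measure it was the densest domain in replicate 1, whereas in replicate 2 the 3' minor domain had 75 bases per peak.

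The central domain held the highest peak of both lists. It covered the single base 39847210 (base 857) in replicate 1, with 578 tags (95% exact Poisson interval 532 to 627), and 39847208 to 39847210 in replicate 2, with 604 tags (557 to 654). Its interval did not overlap that of the next highest Rn45s peak in either list, which was 363 tags (327 to 402) in replicate 1 and 294 tags (261 to 330) in replicate 2. Such intervals cover counting error only, since PCR may have copied one molecule into several reads. They also treat a greatest overlap as a plain count. As the peak was picked as the highest of these same heights, the gap to the next is descriptive. This peak alone made up 25.9% of the Rn45s height in replicate 1 and 30.2% in replicate 2. Replicate 1 had a further central peak at 39847052 to 39847057 (bases 699 to 704) with 183 tags, and the nearest peak of replicate 2 was 149 bases away.

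The 3' major domain had a peak at the same single base in both lists, 39847782 (base 1429), with 338 tags in replicate 1 and 294 in replicate 2. It was the only Rn45s peak with identical bounds. Replicate 2 had another at 39847582 to 39847583 (bases 1229 to 1230) with 209 tags, just past the approximate limit of the central domain, where replicate 1 had no peak within 198 bases.

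The 3' minor domain, which holds the decoding helix and the 3' end of 18S rRNA, had peaks in replicate 2 alone. They were the lowest Rn45s peaks of that list, with 72 tags at 39848058 to 39848060 (bases 1705 to 1707) and 58 tags at 39848123 to 39848134 (bases 1770 to 1781). The first of them lies so close to the approximate limit that it may belong to the 3' major domain. Replicate 1 had 0 of 8 peaks there, which is too few peaks from 1 library to say that the domain lacked signal. The lowest Rn45s peak of replicate 1, with 73 tags, stood instead at 39848506 to 39848507, 304 bases past the end of the copy. It lay inside the annotated transcript and also inside another RefSeq gene, AY036118 (39848112 to 39898385). That gene also overlaps the peak of replicate 2 at bases 1770 to 1781. In the precursor, the first internal transcribed spacer follows 18S, and whether this locus keeps that order was not examined.

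**Figure D1:**
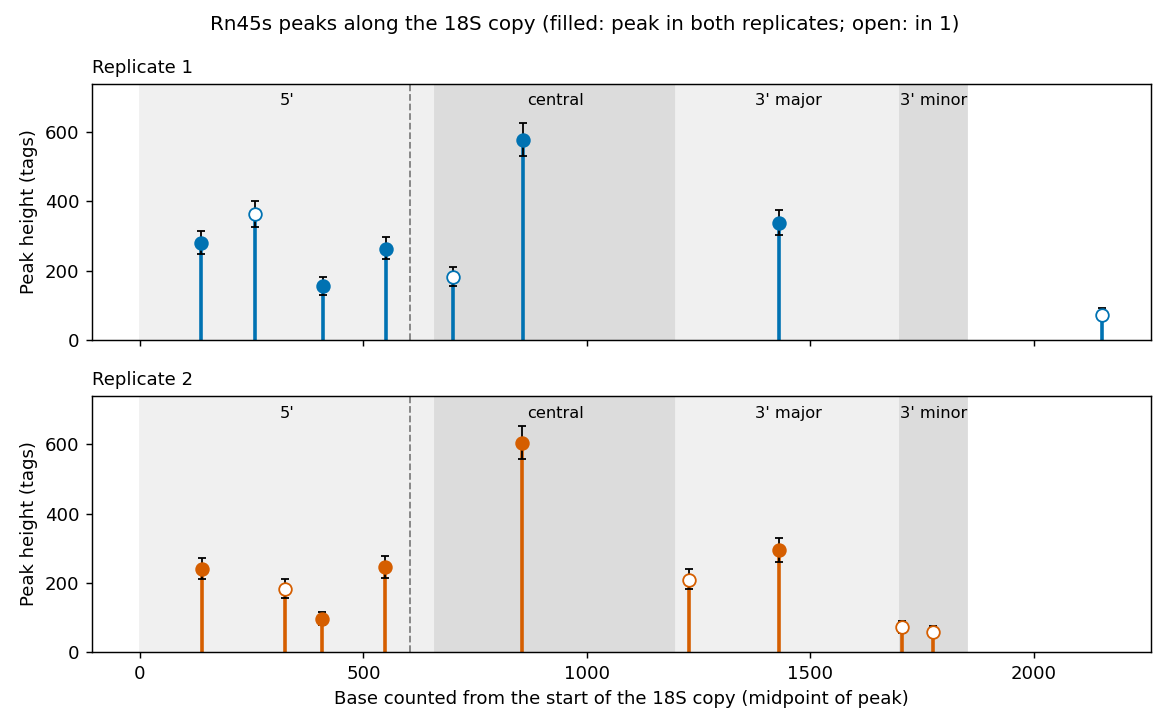
Height in tags (vertical axis) of each Rn45s peak against its midpoint in bases from the start of the 18S copy (horizontal axis), replicate 1 above and replicate 2 below. Bars are 95% exact Poisson intervals, filled points have a partner in the other replicate and open points do not, shading marks the 4 approximate domains, and the dashed line marks the annotated transcript start. The peak near base 857 is the highest in both, and the lowest peaks, of 58 to 73 tags, lie at the 3' end of the copy or past it.

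By domain, the heights were weighted to the 5' side in replicate 1 and only slightly so in replicate 2. The 5' domain held 47.5% of the Rn45s height in replicate 1 and 38.2% in replicate 2, a mean of 42.8% ± 6.62 (SD, n = 2), and makes up 35.6% of the bases of the copy. The central domain held 34.1% and 30.2%, a mean of 32.1% ± 2.74 (SD, n = 2), on 29.2% of the bases. The 3' major domain held 15.1% and 25.2%, a mean of 20.1% ± 7.08 (SD, n = 2), on 27.0% of the bases. The 3' minor domain held 0% and 6.50% on 8.11% of the bases. The remaining 3.27% of the height in replicate 1 lay past the copy. In both replicates the 5' and central shares of height were above, and both 3' shares of height below, the share of bases. In replicate 1 the shares of height count the 73 tags past the copy in their total, whereas the shares of bases are of the copy alone. With domain limits 20 bases higher, the peak of 72 tags in replicate 2 counted in the 3' major domain, which then held 28.8% of the height on 27.0% of the bases, so its direction turned in that replicate. For the 5' and 3' minor domains the mean differed from the share of bases by slightly more than the SD between replicates. For the central domain it differed by about as much as the SD, and for the 3' major domain by less. At limits 20 bases higher the 5' domain has 36.7% of the bases, and its difference was then also less than the SD. With 2 libraries and 17 peaks no test was made, and all of these differences were smaller in replicate 2 than in replicate 1. Up to and including the highest peak lay 6 peaks with 81.6% of the height in replicate 1 and 5 peaks with 68.4% in replicate 2. Over all Rn45s peaks, the mean position weighted by height was base 718 in replicate 1 and base 843 in replicate 2. Without the peak past the copy, it was base 670 in replicate 1.

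**Figure D2:**
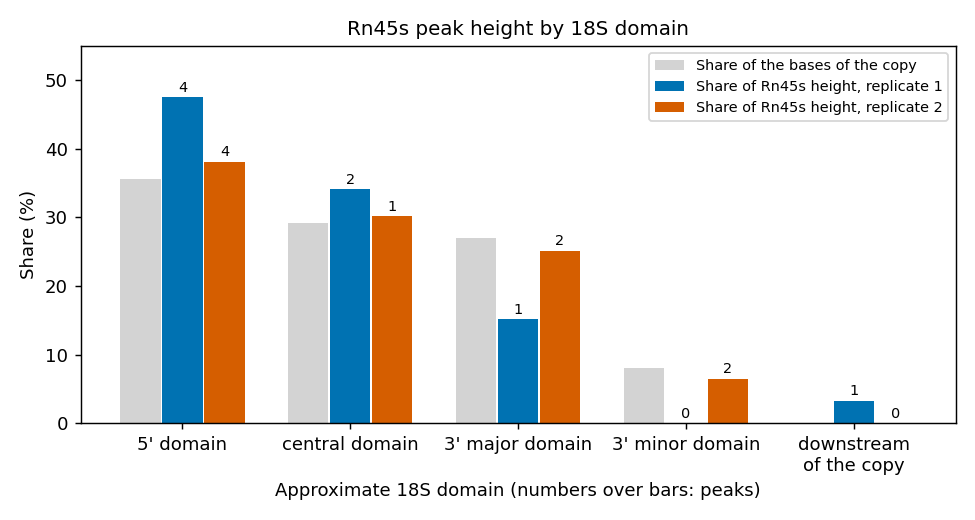
Share in percent (vertical axis) of the bases of the 18S copy (grey) and of the summed Rn45s peak height in replicate 1 (blue) and replicate 2 (orange) for each approximate 18S domain and for the stretch downstream of the copy. Numbers over the bars count peaks. The 5' domain has 4 peaks and the largest share in both replicates, and the 3' minor domain has 0 peaks in replicate 1 and 2 in replicate 2.

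Spacing was more even in replicate 1 than in replicate 2 up to the highest peak. In replicate 1 the 6 peaks from base 136 to base 857 had midpoints 120, 151.5, 141, 151.5 and 155.5 bases apart. The next spacings were 572 bases, to the peak at base 1429, and 724.5 bases, to the peak past the copy. In replicate 2 the midpoints up to the highest peak were 186.5, 82, 141.5 and 307 bases apart, and the next ones 373.5, 199.5, 277 and 69.5. The even series of replicate 1 was thus not present in replicate 2, where the positions at bases 255 and 699 had no peak and one at base 325 was added. Whether the even spacing differs from chance was not tested.

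Peaks of Rn45s were narrow. Their widths ran from 1 to 6 bp in replicate 1 with a median of 3.5 bp, and from 1 to 12 bp in replicate 2 with a median of 2 bp, against medians of 20 bp and 19 bp at the 123 and 87 other peaks. A width of 1 bp was found at 2 Rn45s peaks in replicate 1 and 3 in replicate 2, and at 1 and 0 of the other peaks. How the caller set these bounds is not stated, so a width is not taken as the size of a binding site. The 28 bp and 27 bp in Rn45s peaks held most of the summed height, 64.0% and 74.4%, but when each height was multiplied by the width of its peak, Rn45s made up 30.7% and 27.7%.

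The peaks of the replicates coincided closely where they coincided at all. Of the Rn45s peaks, 5 overlapped by at least 1 bp, 62.5% of the 8 in replicate 1 and 55.6% of the 9 in replicate 2. Over all peaks of the lists, 33.6% of replicate 1 and 45.8% of replicate 2 had such a partner. The libraries shared 1 or 2 bases at each of the 5. The Rn45s peaks without a partner lay from 64 to 371 bases from the nearest peak of the other list, so no peak was a near miss. They were 3 peaks with 27.7% of the Rn45s height in replicate 1 and 4 peaks with 26.0% in replicate 2. The highest without a partner was the peak of 363 tags at base 255 in replicate 1, the second highest of its list. The coverage between peaks was not analysed here, so a library may hold tags at a position where it has no called peak.

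At the 5 shared peaks the order of heights was nearly the same. The peak at base 857 had a mean height of 591 ± 18.4 tags (SD, n = 2), and the peak at base 1429 had 316 ± 31.1 tags (SD, n = 2). Next came those at base 139, with 259.5 ± 27.6 tags (SD, n = 2), and base 549, with 254.5 ± 13.4 tags (SD, n = 2), which changed places between replicates and differed by less than their spread. The lowest was the peak at base 407, with 125.5 ± 41.7 tags (SD, n = 2). Replicate 1 was higher at 4 of the 5 and replicate 2 at 1, the peak at base 857. The ratio of replicate 2 to replicate 1 ran from 0.619 at base 407 to 1.04 at base 857, beside 0.770 for the summed height of all peaks.

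As shares of the height of the 5 shared peaks, which removes any overall difference in scale, the replicates were close at bases 139, 549 and 1429. They differed more at bases 857 and 407. Only peaks found in both lists enter these shares. The peak at base 857 held 35.8% in replicate 1 and 40.8% in replicate 2, and the peak at base 1429 held 20.9% and 19.9%. The peak at base 139 held 17.3% and 16.2%, the peak at base 549 held 16.4% and 16.6%, and the peak at base 407 held 9.60% and 6.49%. The SD between replicates was at most 3.55 percentage points, at base 857. These shares add up to the same total in each library, so a higher share at 1 peak lowers the others.

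The name of each peak also holds a number called PH0, which is read here as the height that the peak caller expected, a meaning that no source used here states. It was 26.82 tags for all Rn45s peaks of replicate 1 and 16.75 tags for all of replicate 2, a ratio of 0.625 between the libraries. Divided by it, the 8 heights of replicate 1 gave ratios from 2.72 to 21.6 with a median of 10.1, and the 9 of replicate 2 from 3.46 to 36.1 with a median of 12.5. The highest ratio was at base 857 in both, 21.6 and 36.1, a mean of 28.8 ± 10.3 (SD, n = 2). Next among the shared peaks were base 1429 with 12.6 and 17.6, base 139 with 10.4 and 14.3, and base 549 with 9.84 and 14.6, whereas base 407 had 5.78 and 5.73. On this scale replicate 2 was higher at 4 of the 5 shared peaks, whereas in tags replicate 1 was higher at 4. Which library gave the stronger Rn45s peaks thus depended on the scale.

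**Figure D3:**
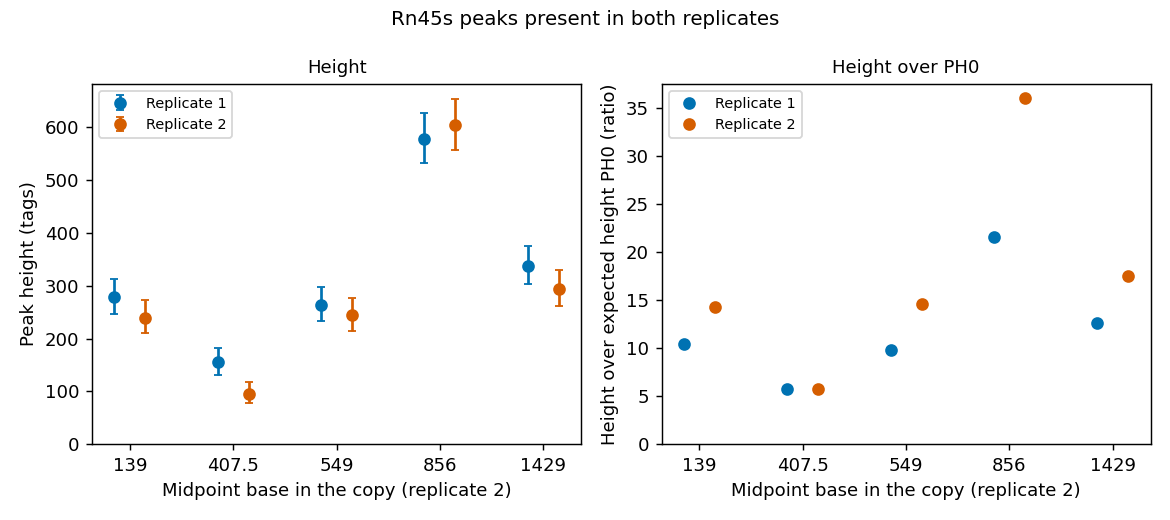
Height in tags (left) and height over PH0 (right, a ratio) of the 5 Rn45s peaks found in both replicates, by midpoint base in the copy as in replicate 2, with replicate 1 in blue and replicate 2 in orange. Bars on the left are 95% exact Poisson intervals. Base 856, the midpoint of the peak that covers base 857, is highest on both scales, while the order of the replicates turns at 3 of the 5 peaks between the panels.

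By height divided by expected height, the Rn45s peaks ranked low in their lists although they ranked high in tags. In replicate 1, 5 Rn45s peaks were higher in tags than every other peak, the highest other being one of 192 tags, and in replicate 2 all 9 were, the highest other having 38 tags. By height over PH0, 122 of the 123 other peaks of replicate 1 and all 87 of replicate 2 were above the highest Rn45s ratio. This holds with PH0 read as up to 0.005 above its printed value, since it is rounded and was printed as 0 at 83 and 65 of the other peaks. The exception in replicate 1 was Snord22, a box C/D snoRNA, with a ratio of 3.28. Its peak was listed there under 2 gene IDs, and this ratio is that of the ID kept here. With the other ID, PH0 was 1.19 tags and the ratio 71.4, above every Rn45s ratio of replicate 1. The ratio is a property of both numbers, and the expected height of Rn45s was the largest of either list, followed by 25.91 tags at Snord22 and 0.52 tags in replicate 1 and by 0.30 tags in replicate 2. By height minus PH0 the highest other peak had 191.97 tags in replicate 1 and 37.99 in replicate 2. The Rn45s peaks had medians of 244.68 and 192.25 tags and minima of 46.18 and 41.25. The low rank thus belonged to the ratio and not to the difference. Every ratio and difference here rests on that reading of PH0, whose formula is not known either.

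Nor did the Rn45s peaks have the smallest p-values of their lists. The authors' peak caller gave a p-value of 2.20e-09 to 7 Rn45s peaks of replicate 1, whatever their height from 155 to 578 tags, and 3.34e-06 to the peak past the copy. In replicate 2 it gave 8.84e-10 to 8 peaks, from 72 to 604 tags, and 6.08e-08 to the peak at base 1770. Smaller p-values stood at 40 of the other peaks in replicate 1 (32.5%) and 30 in replicate 2 (34.5%), whose heights had medians of 10.5 and 12 tags. Of these, 31 in replicate 1 and 26 in replicate 2 had the same p-value from the caller, 1e-100, the smallest of either list. The p-values thus set apart the lowest Rn45s peak of each list and tied all the others.

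**Figure D4:**
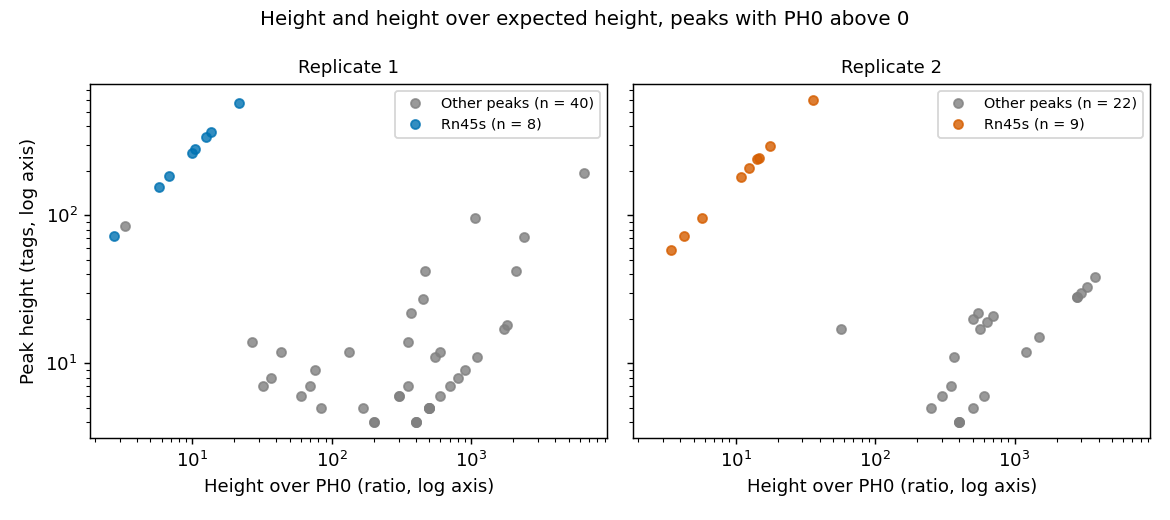
Height in tags (vertical log axis) against height over PH0 (horizontal log axis) for peaks with a PH0 above 0, in replicate 1 (left, 8 Rn45s and 40 other peaks) and replicate 2 (right, 9 and 22). Rn45s peaks, in colour, are at the top left, with ratios of at most 36.1 and, for 5 of the 8 in replicate 1 and all 9 in replicate 2, heights above every other peak, and lie on a line because they share 1 PH0 per library. The grey point among them in replicate 1 is Snord22.

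Among other genes with a peak in both lists, the ones most like Rn45s in height over PH0 were few, since 10 of the 39 other shared peaks, in 9 genes, had a PH0 above 0 in both. The measure was the geometric mean of the ratio over both replicates, whose median over the 5 shared Rn45s peaks was 12.2. Snord22, a snoRNA needed for 18S processing, was closest with 13.6, from heights of 85 and 17 tags. Its ratios were 3.28 in replicate 1, below all shared Rn45s peaks, and 56.7 in replicate 2, above all of them, so in neither library did it lie among them. Its peak was listed under 2 gene IDs in replicate 1, and with the other ID, for which PH0 was 1.19 tags, the mean was 63.6. Zfp791, the gene named for a peak of 5 and 20 tags, had 289, and Eif4g2, a translation initiation factor, had 358, both far from Rn45s.

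Genes that act in 18S processing were counted by name beside Rn45s. The list held 90 proteins and small RNAs of the small subunit processome and of later 18S maturation, of which 85 were matched to RefSeq. In replicate 1, 3 of the 85 (3.53%) were named for a peak, and in replicate 2, 2 of the 85 (2.35%), against 0.22% and 0.168% of all genes. The list was written with earlier results of these data known, Snord22 included, so the count says nothing particular about it. The members were Snord22 with 85 and 17 tags, Rrp12, a factor in export of the pre-ribosome, with 4 tags in both and identical bounds in an intron, and Snord14c, a copy of U14, with 8 tags in replicate 1 alone. The highest of them, 85 tags, was above the lowest Rn45s peak of replicate 1, at 73 tags, and the others were below every Rn45s peak.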

How the data were processed

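The authors deposited an annotated list of peaks for each replicate, called separately in each library. Reads were aligned to mm10, and BWA, ChIPseeker and deepTools were used, per the submitters' processing notes; the name of the peak caller is not given in the sources used here, nor is any control. Heights are the authors' counts of tags, deposited without scaling for depth; heights summed to 3491 and 2687 tags, and library totals are unknown. Other columns deposited by the authors give the width in bp and, in the peak name, gene ID, PH0 and a p-value. Of 133 and 98 lines, positions under 2 gene IDs were kept once, as the line whose caller gene was the annotated gene, leaving 131 and 96 peaks. Rn45s was taken by symbol. Peaks were placed by their midpoint. Peaks on the same strand that overlapped by at least 1 bp were shared. RefSeq coordinates and 49997 genes were those of GRCm38.p6, the build of mm10. The overlap code was tested on simulated peaks. Python 3.11.15, pandas 2.3.3 and scipy 1.17.1 were used. With 1 group of 2 libraries no test between groups exists and none was made. Members, lists and domain limits were chosen with earlier results of these data known. Named were all Rn45s peaks, the 3 genes most like them in height over PH0, and list members with a peak. Alternatives covered duplicate lines, membership, p-value and height limits, width, overlap, domain limits and PH0.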

Additional observations from a re-analysis of the deposited data

How the results depend on the processing

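The number of Rn45s peaks stayed at 8 and 9 with every deposited line, with p-values of at most 0.001 and at or above the median height, and was 7 and 9 for peaks on the copy. The Rn45s share of summed height, a mean of 69.2%, was 29.2% with heights multiplied by widths, and 64.0% to 74.4% with 1 replicate left out. Shared Rn45s peaks numbered 1 with identical bounds and 5 with gaps of up to 10 or 30 bp. Domain limits 20 bases lower moved no peak, and limits 20 bases higher moved 1 peak of replicate 2 from the 3' minor to the 3' major domain, whose share of height in replicate 2 then became 28.8% (weighting by height there was chosen after seeing the data). By height minus PH0, all other peaks, 123 and 87, were under the highest Rn45s peak, against 1 and 0 by height over PH0; with the other line of peaks under 2 gene IDs, chosen after seeing the data, the 1 became 0. No paired analysis was possible because there is 1 group. Unknown depth and 17 peaks limit all shares.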
